A study of Mus musculus with 27 samples.

Results

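The chromosome 2 core is the well-covered middle of a captured region around Meis2, at chr2:115200001-117080000 (GRCm38/mm10), and its contacts with the other chromosomes of mouse testis nuclei are described here. Its partners were the 1 Mb bins of the other 18 autosomes, 2287 of the 2470 autosomal 1 Mb bins. Positions in chr4:102820001-110380000, which was itself captured, were taken out of these bins. After a filter on background 2205 bins were kept. The core's contacts in a bin were divided by that bin's interchromosomal contacts that involve neither captured region, called the background, and scaled so that the ratio is 1 over all kept bins of a library. A ratio of 1.5 thus means that a bin took 1.5 times the share of the core's contacts that it took of the background.

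The study deleted a boundary between topologically associating domains (TADs) on mouse chromosome 4 and compared testes by capture Hi-C, RNA-seq and ChIP-seq. The contact matrices of 6 libraries were used: 3 libraries of testis with genotype B396.BOS_hom_KO (homozygous for the deletion) and 3 labelled Wild-type. The deletion lies on chromosome 4, outside the core. Strain, age, and whether libraries came from separate animals are not given in the labels, so p-values measure only the spread between these libraries, which may be technical. Contact matrices hold no expression, and the tissue label was not checked against marker genes.

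In Hi-C, DNA ends that lie near each other in a fixed nucleus are ligated and sequenced as pairs, and capture enriches pairs with an end in a chosen region. Each chromosome occupies its own territory, so most pairs join sites on 1 chromosome, and contacts between chromosomes sort largely by gene content and activity: gene-rich, active chromatin meets other such chromatin, and gene-poor chromatin gathers with its like. The testis is mostly germ cells, from spermatogonia through meiotic spermatocytes to spermatids, and mouse autosomes have their centromere at the start of the coordinate axis.

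The core spans 188 deposited bins of 10 kb and holds 3 protein-coding genes: BC052040, at chr2:115580907-115778774, Meis2, at chr2:115861264-116067537, which encodes a homeodomain transcription factor of the TALE class, and Tmco5, at chr2:116878693-116892506, which encodes a transmembrane and coiled-coil protein. Another 14 long non-coding RNA genes, 4 pseudogenes, 1 microRNA gene and 1 small nucleolar RNA gene lie in it. The promoters of the 3 coding genes are shown because the viewpoint itself spans both a CpG-rich and a CpG-poor start. The table used lists a single start for each, which lies inside the gene's annotated span rather than at its outermost end; both fall in the same 10 kb bin. They run from 250 bases before to 50 bases after the start, are from RefSeq on GRCm38.p6, and carry each CG dinucleotide in capitals. BC052040 is on the plus strand at chr2:115581466-115581765, Meis2 on the minus strand at chr2:116064570-116064869 and Tmco5 on the plus strand at chr2:116878455-116878754.
BC052040: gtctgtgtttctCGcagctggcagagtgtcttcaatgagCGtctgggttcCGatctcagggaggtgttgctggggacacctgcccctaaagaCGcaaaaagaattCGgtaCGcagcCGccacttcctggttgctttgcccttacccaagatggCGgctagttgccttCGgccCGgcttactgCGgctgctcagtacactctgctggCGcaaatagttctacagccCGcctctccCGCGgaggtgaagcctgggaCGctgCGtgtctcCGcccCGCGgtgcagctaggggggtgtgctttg
Meis2: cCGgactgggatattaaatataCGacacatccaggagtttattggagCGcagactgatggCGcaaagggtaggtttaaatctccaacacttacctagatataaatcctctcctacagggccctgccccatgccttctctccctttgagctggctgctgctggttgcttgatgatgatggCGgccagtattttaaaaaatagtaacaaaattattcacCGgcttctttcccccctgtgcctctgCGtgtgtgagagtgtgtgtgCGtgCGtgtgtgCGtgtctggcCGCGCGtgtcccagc
Tmco5: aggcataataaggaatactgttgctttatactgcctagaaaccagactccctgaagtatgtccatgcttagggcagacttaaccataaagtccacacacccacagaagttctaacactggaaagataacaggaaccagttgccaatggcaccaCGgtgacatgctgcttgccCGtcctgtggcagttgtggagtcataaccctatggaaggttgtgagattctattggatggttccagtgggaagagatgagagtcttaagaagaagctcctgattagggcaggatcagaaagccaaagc

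The motif searched was CG, which reads the same on both strands. It occurred 20 times in the BC052040 promoter, 13 times in that of Meis2 and 2 times in that of Tmco5, while 95.05% of the 16457 promoters of protein-coding genes on autosomes held it, with a median of 14 and quartiles of 4 and 25. The 10 kb bins that hold these starts sent different shares of their contacts to other chromosomes: 13.4% ± 0.297 (SD, n = 6 libraries) at BC052040, 11.5% ± 0.139 at Meis2 and 11.04% ± 0.399 at Tmco5. The BC052040 bin lay between 13.0% and 13.8% in the 6 libraries, above every library of the Meis2 and Tmco5 bins, while those of Meis2 (11.3% to 11.6%) and Tmco5 (10.5% to 11.5%) overlapped. Over the 188 bins the median was 11.3%, with quartiles of 10.9% and 11.9%. The bin of the BC052040 start ranked 6 from the top, and nearby bins without that start were about as high. Examples are chr2:115570001-115580000 at 13.3% ± 0.213 and chr2:115630001-115640000 at 13.6% ± 0.331, while chr2:115620001-115630000 had 11.4% ± 0.309. A link between CG number and this share was not tested. In these shares a contact that joins 2 bins of the core enters the total of both. They therefore lie below the share of the whole core given further down, where it enters once.

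Each library held between 5669898 and 7794641 contacts, of which 17.4% to 18.3% joined different chromosomes. The core alone gave 35.4% to 40.0% of these interchromosomal contacts, the lowest 2 values in the libraries with replicate number 2. Its contacts with the other autosomes outside the captured chromosome 4 region numbered 413931, 426727 and 502483 in the wild-type and 402521, 482681 and 488655 in the homozygous libraries. A kept 1 Mb bin held a median of 203 core contacts and 342 background contacts per library. Between 97.3% and 98.0% of the 10 kb pairs held a single contact, so single pairs carry little and the results below rest on 1 Mb sums. Of the 82 bins left out for a background below 25% of the median, 55 were among the first 4 bins of a chromosome. Together the 82 held 0.0509% of the core's contacts. They include the bins wholly inside the captured chromosome 4 region, which were empty because that region was taken out.

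Partner bins differed strongly and reproducibly. The ratio ran from 0.450 at the 5th percentile of bins to 2.04 at the 95th, and Pearson's r of the log2 ratios between any 2 libraries, across bins that share libraries' depth and background, lay between 0.951 and 0.963. With edgeR's quasi-likelihood test and Benjamini-Hochberg adjustment over the 2205 bins, 970 bins (44.0%) were higher than background and 978 (44.4%) lower at an adjusted p under 0.05. With so many bins called, size says more than the call: 102 bins were more than 2-fold higher and 194 more than 2-fold lower. Called bins lay in long stretches: 62 runs of 5 or more neighbouring bins held 739 of the higher bins, and 78 such runs held 785 of the lower ones.

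The bins with the highest ratios to background overlapped few protein-coding genes. The highest ratio was in the 1 Mb bin at chr5:84000001-85000000, with Epha5, an ephrin receptor tyrosine kinase. Its ratio was 2.85, 2.79 and 2.40 in the wild-type and 3.06, 3.22 and 2.85 in the homozygous libraries, from 319 to 405 core contacts and 204 to 277 background contacts per library. All 6 libraries were more than 2-fold above 1, and the log2 difference was 1.47 ± 0.05 (SE, edgeR adjusted p = 1.33e-162). Next came chr7:91000001-92000000 with Dlg2, a synaptic scaffold protein, at 2.74 ± 0.323 (SD, n = 6), and chr5:81000001-82000000 with Adgrl3, an adhesion G protein-coupled receptor of the latrophilin family, at 2.70 ± 0.135. The bin of Dpp10, a subunit of potassium channels, at chr1:123000001-124000000 had 2.60 ± 0.237, and that of Kif2b, a kinesin, at chr11:91000001-92000000 had 2.58 ± 0.227. The other 5 of the 10 highest had ratios of 2.52 to 2.59: chr5:69000001-70000000 with Kctd8, chr7:77000001-78000000 with Agbl1, and chr11:92000001-93000000, chr5:80000001-81000000 and chr5:82000001-83000000, which overlap no protein-coding gene. Of the 10, 3 thus had no coding gene and another 5 overlapped a single one.

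Of these 10 bins, 5 lie in 1 run at chr5:66000001-92000000, where 26 bins in a row were higher and the ratio was 1.92 ± 0.0521 (SD, n = 6). The longest run was chr4:63000001-103000000, 40 bins with 4.05 protein-coding genes per Mb, whose longest genes are Ptprd, Astn2 and Adamtsl1; its ratio was 1.79 ± 0.0374 and ranged from 1.74 to 1.83. Chromosome 4 then changed sign across the captured region that was left out: chr4:115000001-156360000 was the longest lower run, 42 bins with 16.3 genes per Mb, at 0.535 ± 0.0119. Among the other long higher runs were chr1:94000001-131000000, with Dpp10, at 1.89 ± 0.0399, chr7:48000001-79000000 at 1.702 ± 0.063 and chr3:59000001-87000000 at 1.62 ± 0.0358. A long lower run at the start of chromosome 17, chr17:3000001-37000000, had 18.5 genes per Mb and a ratio of 0.508 ± 0.0183.

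The lowest bins lay mostly near chromosome starts. The lowest of the 2205 was chr17:39000001-40000000, which holds Esp genes for exocrine gland-secreted peptides, with ratios between 0.0344 and 0.0828. Its background was 15.02 times the median bin's, and the chromosome 4 core was as low there, at 0.0625 ± 0.019 (SD, n = 6). Chr11:3000001-4000000, with Osbp2 and Limk2, had 0.149 ± 0.0222 and a background of 5.96 times the median. The lowest bin with a background under 2 times the median was chr16:3000001-4000000, with Nlrc3, a receptor-like regulator of innate immunity. Its ratio was 0.226, 0.245 and 0.256 in the wild-type and 0.232, 0.211 and 0.210 in the homozygous libraries, a log2 difference of -2.16 ± 0.07 (SE, edgeR adjusted p = 3.38e-195). The remaining 7 of the 10 lowest, with ratios of 0.232 to 0.276, were 3 bins within chr19:3000001-8000000 and single bins at chr3:8000001-9000000, chr8:20000001-21000000, chr12:20000001-21000000 and chr13:3000001-4000000. The chromosome 4 core also had a mean ratio below 1 in each of these 10 bins. Outside the bin of Esp genes it ran from 0.313 at chr11:3000001-4000000 to 0.859 at chr19:4000001-5000000, so low ratios there were not particular to the chromosome 2 core. Core contacts per library were few at chr8:20000001-21000000 (17 to 26) and chr12:20000001-21000000 (11 to 35). In 43 of the kept bins the background exceeded 2 times the median, and without them 943 bins were higher and 971 lower.

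The core's partners were poor in genes. Bins called higher had a median of 2 protein-coding genes per Mb, bins called lower 10 and bins not called 5; 211 higher bins but 26 lower ones held no protein-coding gene. Across the 2205 bins, Spearman's rho of the log2 ratio with genes per Mb was -0.63, with the share of the bin covered by genes -0.35, and with the background itself -0.71, which is also the ratio's denominator. The starts in the higher bins were also lower in CpG: the 2893 promoters matched in higher bins had a median of 9 CG dinucleotides and 52.7% GC, against 16 and 58.0% in the 10303 promoters of lower bins.

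**Figure D1:**
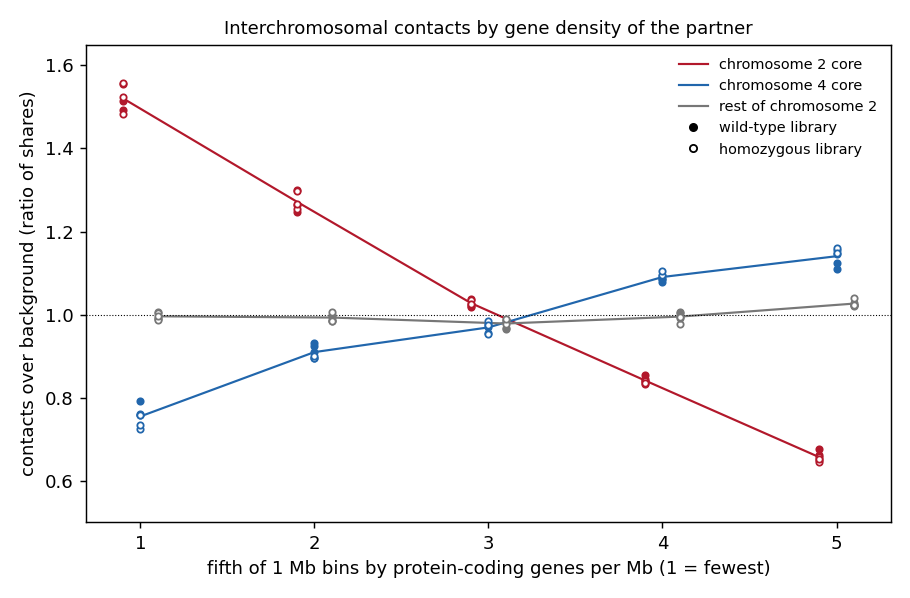
Ratio of contacts to background (y axis, 1 = background) in 5 equal groups of 1 Mb bins ordered by protein-coding genes per Mb (x axis), for the chromosome 2 core, the chromosome 4 core and the rest of chromosome 2; points are the 6 libraries and lines join their means. The chromosome 2 core falls from 1.52 to 0.657 while the chromosome 4 core climbs from 0.755 to 1.14 and the rest of chromosome 2 stays between 0.978 and 1.03.

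With the bins ordered by gene density and cut into 5 groups of 441, the ratio fell at each step, from 1.52 to 1.27, 1.03, 0.841 and 0.657. In the group with fewest genes (at most 1 per Mb) it was 1.51, 1.56 and 1.49 in the wild-type and 1.48, 1.56 and 1.52 in the homozygous libraries, and in the group with most (13 to 67 per Mb) it was 0.650, 0.662 and 0.676, then 0.656, 0.644 and 0.652. No library of 1 group overlapped the next group. Of the gene-poorest bins 363 were called higher and 46 lower, and of the gene-richest 38 and 369. The log2 difference between richest and poorest was -1.21 ± 0.046 (SD, n = 6), a 2.32-fold difference that was negative in 6 of 6 libraries; an exact two-sided sign-flip permutation test gave p = 0.03125, the smallest that 6 libraries allow, and 0.0361 after adjustment over 15 such tests.

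The same pattern was there in contacts before division, though smaller. From the gene-poorest to the gene-richest group, core contacts per bin and library fell from a mean of 226 to 181, while background contacts per bin climbed from 267 to 497 and those of the chromosome 4 core from 67.9 to 191. The background is made of pairs that capture did not target, and its own rise with gene density enters every ratio. How far GC, mappability or restriction sites of bins add to that rise was not tested. In a comparison with another viewpoint of the same library the background cancels.

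That comparison was made with the chromosome 4 core, chr4:107110001-107960000, the best covered stretch of the other captured region, of whose 85 bins of 10 kb the 3 at the deletion were left out. Over the 2060 bins of chromosomes other than 2 and 4, its ratio climbed with gene density, from 0.755 ± 0.0241 (SD, n = 6) to 1.14 ± 0.0198. On these bins the difference between gene-rich and gene-poor groups was -1.18 for the chromosome 2 core and 0.60 for the chromosome 4 core on the log2 scale, and the gap of -1.78 ± 0.109 had the same sign in 6 of 6 libraries (exact sign-flip permutation p = 0.03125, adjusted 0.0361). The rest of chromosome 2, outside the captured region, was nearly flat, at 0.04, and differed from the core by -1.22 ± 0.062 (same p). The rest of chromosome 2 is part of the background and its mean of 21.4 to 41.0 contacts per bin is far below that of the core, so its values are averages over a whole chromosome.

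**Figure D2:**
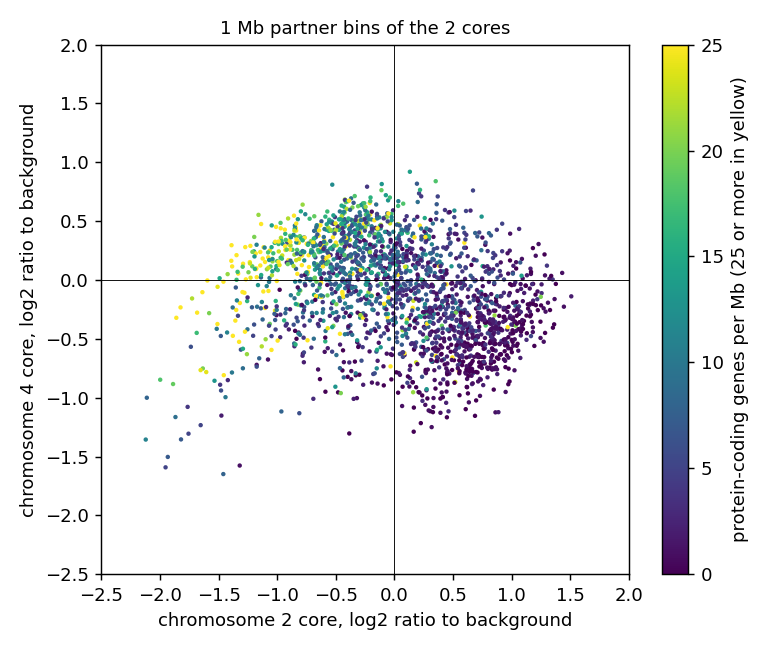
Log2 ratio to background of the chromosome 2 core (x axis) and the chromosome 4 core (y axis) in each 1 Mb bin of the autosomes other than 2 and 4, pooled over the 6 libraries and coloured by protein-coding genes per Mb; 2 bins lie outside the axes. Gene-poor bins fill the lower right, where 788 bins are above 0 for the chromosome 2 core and below 0 for the chromosome 4 core, and gene-rich bins the upper left, with 602.

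Bin by bin, the 2 cores lay more often on opposite sides of background than on the same side. Of the 2060 bins, 788 lay above background for the chromosome 2 core and below it for the chromosome 4 core, 602 the reverse, 285 above for both and 385 below for both; Spearman's rho of the 2 sets of ratios, which share the background and the libraries, was -0.33. In edgeR's quasi-likelihood test, 929 bins (45.1%) took a higher share of the chromosome 2 core's contacts than of the chromosome 4 core's and 932 (45.2%) a lower one, with 403 and 244 of them past 2-fold. Of the 929 bins, 807 were also higher for the chromosome 2 core against background and 42 were lower, where 44.0% of all 2205 bins were higher. Both comparisons use the same chromosome 2 core contacts, so part of this overlap is built in.

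The bin furthest towards the chromosome 2 core was chr18:86000001-87000000, with Neto1, an auxiliary subunit of glutamate receptors, and Cbln2, a synaptic organiser. Its ratio was 1.85 ± 0.119 (SD, n = 6) for the chromosome 2 core and 0.497 ± 0.0709 for the chromosome 4 core. In the bin of Fshr, the receptor for follicle-stimulating hormone that Sertoli cells carry, at chr17:89000001-90000000, the values were 1.82 ± 0.129 and 0.497 ± 0.0977. The bin of Adcyap1, a neuropeptide, at chr17:93000001-94000000 had 1.93 ± 0.198 and 0.553 ± 0.11. The bins chr19:51000001-52000000 and chr17:76000001-77000000, which hold no coding gene, complete the 5, and in each of the 5 the cores' ratios differed at least 3.42-fold in the fit. The opposite end held gene-dense bins: chr8:122000001-123000000 and chr8:123000001-124000000, with Ankrd11, a chromatin regulator, and Fanca, a DNA repair protein, had 0.446 ± 0.0608 and 0.384 ± 0.0286 for the chromosome 2 core against 1.56 ± 0.116 and 1.29 ± 0.121. Chr7:141000001-142000000, with Ap2a2 and Muc2, had 0.453 ± 0.0237 against 1.48 ± 0.136, and the others were chr19:5000001-6000000 and chr15:99000001-100000000.

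Gene families of known chromatin type were then followed through the bins that hold them. The lists overlap in bins and differ in gene density, so each count stands beside the 44.0% higher and 44.4% lower over all bins (median log2 difference -0.01) and the 8.62% and 83.7% in the gene-richest group. Bins with zinc finger genes (Zfp symbols), many of which encode transcriptional repressors, were 16 higher and 138 lower of 170, and those with ribosomal protein genes 7 and 54 of 67. All 8 bins with histone genes were lower, with a summed ratio of 0.576 ± 0.021 (SD, n = 6), and so were the 4 bins with Hox genes, at 0.630 ± 0.031, from the Hoxa bin at 0.92 to the bin of Hoxc10 to Hoxc13 at 0.42. Bins with keratin genes were 1 higher and 7 lower of 9.

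Sensory receptor genes, which sit in large clusters that are largely silent outside sensory neurons, departed from other gene-dense bins. Bins with olfactory receptors had a median of 22 coding genes per Mb, yet 24 were higher and 38 lower of 71, with a summed ratio of 0.906 ± 0.009 (SD, n = 6). Bins with vomeronasal receptors were 12 higher and 33 lower of 48, at 0.821 ± 0.016. Within the gene-richest group, the 76 bins with a receptor gene had a ratio of 0.865 ± 0.0103 and the 365 without one 0.626 ± 0.0121, and the libraries of these sets did not overlap; 22 of the 76 were called higher against 16 of the 365. Protocadherin bins, whose genes encode neuronal adhesion molecules, were 7 higher and 3 lower of 10. The higher ones hold the isolated genes, such as Pcdh7 at 2.13 ± 0.14 and Pcdh15 at 2.03 ± 0.11, and the lower ones include the bin of the clustered Pcdha and Pcdhb genes at 0.65 ± 0.06.

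Genes that work in the testis itself lay mostly in bins the core contacted little, as did gene-dense bins at large. Of all bins 44.0% were higher and 44.4% lower, and of the gene-richest group 8.62% and 83.7%. Of 20 bins with meiosis genes, none was higher and 19 were lower: that of Hormad2, a protein of the meiotic chromosome axis, had a ratio of 0.301 ± 0.041 (SD, n = 6), that of Dmc1, the meiotic recombinase, 0.312 ± 0.032, and that of Sycp3, of the synaptonemal complex, 0.870 ± 0.063. These bins had a median of 24 coding genes per Mb. Of 16 bins with spermatid genes, 2 were higher and 11 (68.75%) lower, with a median of 16 coding genes per Mb. The ribosomal protein bins, with the same median, were lower in 80.6%. The bin with Prm1, Prm2, Prm3 and Tnp2, which encode the protamines and a transition protein that replace histones, had 0.439 ± 0.034, whereas Tnp1, another transition protein, sits in a bin at 1.38 ± 0.125. The other TALE homeobox genes, relatives of Meis2, were split: 4 bins were higher and 5 lower of 13, with Meis1 at 1.24 ± 0.16 against Meis3 at 0.39 ± 0.04. Their median log2 difference was 0.02 while their summed ratio was 0.879, so the summary of this list depends on how bins are weighted.

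**Figure D3:**
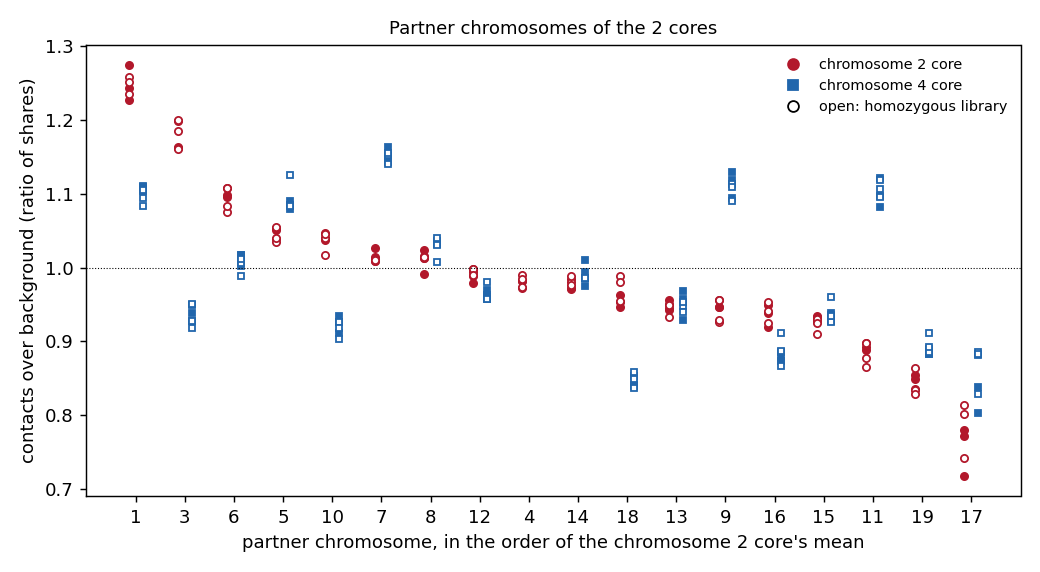
Ratio of contacts to background (y axis, 1 = background) for each partner chromosome (x axis, ordered by the chromosome 2 core's mean), with the chromosome 2 core as circles and the chromosome 4 core as squares; each point is 1 library, open for homozygous. For the chromosome 2 core, chromosome 1 (mean 1.248) and chromosome 3 (1.18) lie above, and chromosome 17 (0.771) below, the other chromosomes; without 1 bin of very high background chromosome 17 stands at 0.861, beside chromosomes 11 and 19.

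Whole chromosomes differed less than bins. Chromosome 1 had the highest ratio, with 1.243, 1.274 and 1.227 in the wild-type and 1.235, 1.258 and 1.252 in the homozygous libraries, followed by chromosome 3 at 1.18 ± 0.0187 (SD, n = 6), chromosome 6 at 1.09 ± 0.0129, chromosome 5 at 1.05 ± 0.00867 and chromosome 10 at 1.04 ± 0.011. Chromosomes 5 and 10 were within their spread of each other. Chromosome 17 was lowest, at 0.771 ± 0.0361, below chromosome 19 at 0.844 ± 0.0139 and chromosome 11 at 0.886 ± 0.0128. That rank rests on the single bin of Esp genes described above: without it, an alternative chosen after seeing the data, chromosome 17 had 0.861 ± 0.00924 and chromosome 19, at 0.839 ± 0.0140, was lowest. Without all 43 bins of high background, 6 each of which lie on chromosomes 17 and 19, chromosome 17 had 0.884 ± 0.0104, chromosome 11 had 0.915 ± 0.0144 and chromosome 19 had 0.930 ± 0.0169. Of the 18, 6 chromosomes were above 1 and 11 below 1 in all 6 libraries (5 and 12 without the 43 bins). Longer chromosomes had higher ratios: Spearman's rho over the 18 chromosomes was 0.85 with length (0.79 without the 43 bins) and -0.40 with genes per Mb.

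Chromosomes still differed when groups of gene density were weighted alike. The groups are broad, the richest spanning 13 to 67 genes per Mb, so chromosomes can still differ in density within a group. With each of the 5 gene density groups weighted equally within a chromosome, chromosome 1 stood at 1.21 ± 0.013 and chromosome 15 at 0.895 ± 0.00824, while the gene-dense chromosomes 7 and 11 moved from 1.01 to 1.15 ± 0.016 and from 0.886 to 1.02 ± 0.012. Chromosome 17 stood lowest, at 0.829 ± 0.026, and at 0.910 ± 0.00789 without the bin of Esp genes, above chromosome 15 at 0.889 ± 0.0077. The chromosome 4 core had a different order: on 11 of the 17 chromosomes compared, the 6 libraries of the 2 cores did not overlap, and the chromosome 2 core was the higher on 6 of these. Spearman's rho of the 2 cores' ratios over the 17 chromosomes was 0.35 (0.10 without the 43 bins of high background). Chromosome 11 had 1.10 ± 0.0149 and chromosome 9 had 1.11 ± 0.0149 for the chromosome 4 core, against 0.886 and 0.944 for the chromosome 2 core, and chromosome 3 had 0.935 ± 0.013 against 1.18.

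**Figure D4:**
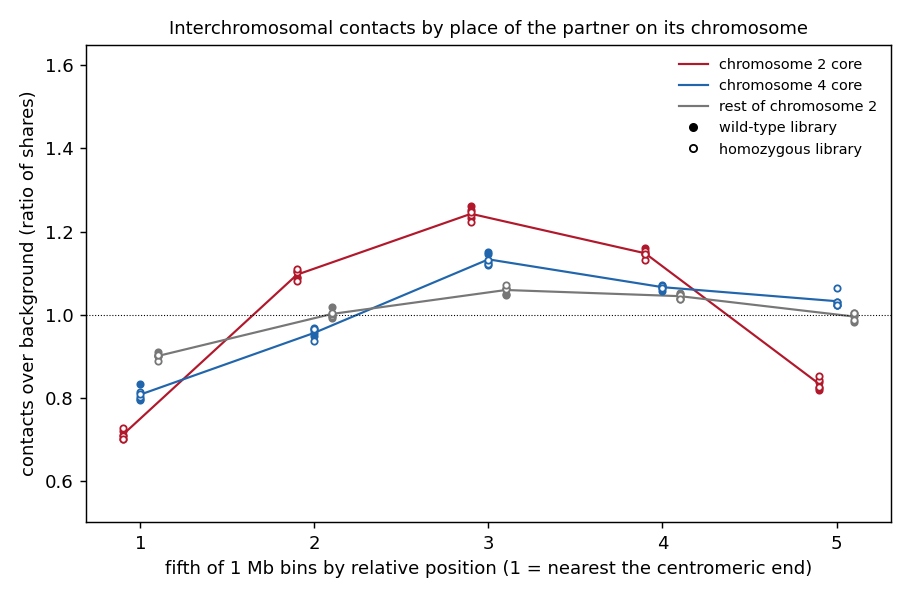
Ratio of contacts to background (y axis, 1 = background) in 5 equal groups of 1 Mb bins ordered by relative position on their chromosome (x axis, 1 at the centromeric end), for the chromosome 2 core, the chromosome 4 core and the rest of chromosome 2; points are the 6 libraries and lines join their means. The chromosome 2 core is lowest at both ends, at 0.711 and 0.833, and peaks at 1.24 in the middle.

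Place along the partner chromosome mattered as well. In 5 groups of bins from the centromeric start to the far end, the ratio was 0.711 ± 0.0105 (SD, n = 6), 1.10 ± 0.0115, 1.24 ± 0.0139, 1.15 ± 0.00988 and 0.833 ± 0.0127, highest in the middle, where none of the libraries overlapped those of another group. The core itself lies 116 Mb from the start of chromosome 2, at 63.8% of its length. The far end exceeded the start by 0.23 ± 0.023 on the log2 scale in 6 of 6 libraries (exact sign-flip permutation p = 0.03125, adjusted 0.0361). The chromosome 4 core dipped at the start, at 0.807 ± 0.0139, and not at the far end, at 1.03 ± 0.0155, and over shared bins its difference between the ends exceeded that of the chromosome 2 core by 0.04 (-0.042 ± 0.027, same p), a gap that was -0.027 in 2 Mb bins (exact sign-flip permutation p = 0.094).

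The difference by place varied with gene density. Within the 3 gene-poorer groups, the last part of the chromosome, of 3, exceeded the first by 0.44 ± 0.022, 0.44 ± 0.027 and 0.34 ± 0.023 on the log2 scale, and within the 2 gene-richest groups by -0.02 ± 0.025 and -0.05 ± 0.018 (SD, n = 6). Conversely, the difference between gene-rich and gene-poor bins was present at every place, from -0.80 ± 0.041 near the start to -1.13 ± 0.052 in the fourth group. Bins within 10 Mb of the core's own distance from the chromosome start were not favoured: their log2 ratio minus that of all other bins was -0.11 ± 0.015, negative in 6 of 6 libraries (exact sign-flip permutation p = 0.03125, adjusted 0.0361). Over shared bins it was -0.10 ± 0.018, against 0.12 ± 0.018 for the chromosome 4 core. Chromosomes 15 to 19 end before this window. On chromosomes 8 to 14, of 120 to 131 Mb, it lies at the far end, so distance and place cannot be told apart.

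The preference for gene-poor partners held along the whole core. For the 66 bins left of Meis2, the 21 that overlap it and the 101 to its right, the log2 difference between gene-rich and gene-poor partners was -1.24 ± 0.054, -1.22 ± 0.035 and -1.18 ± 0.045 (SD, n = 6). The right part differed from the left by 0.06 ± 0.014 and from Meis2 by 0.04 ± 0.024 (exact sign-flip permutation p = 0.03125, adjusted 0.0361), and Meis2 from the left part by 0.02 ± 0.035 (p = 0.1875). Summed over 10 kb bins, the left part sent 11.8% ± 0.219 of its contacts to other chromosomes, Meis2 11.2% ± 0.303 and the right part 11.3% ± 0.258, with the left higher in 6 of 6 libraries. With each 10 kb pair counted once whatever its number of contacts, Meis2 lay 0.161 percentage points above the left part, so that order depends on how repeated pairs are counted.

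A single pair of 10 kb bins stood out from the mass of single contacts. Chr2:116550001-116560000, between Meis2 and Tmco5, met chr9:45980001-45990000, which overlaps Pafah1b2, a catalytic subunit of platelet-activating factor acetylhydrolase, 6, 13 and 8 times in the wild-type and 7, 10 and 4 times in the homozygous libraries. The 48 contacts made up 3.88% of the core's contacts with that 1 Mb bin. Of 2555067 pairs seen in any library, only this one and a pair with chr13:69790001-69800000, with 12 contacts, occurred in all 6. The pair was noticed after the counts were seen, and sequence likeness between its ends was not tested.

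The study compared genotypes, and for the core's interchromosomal contacts no difference was called. In edgeR's quasi-likelihood test of homozygous against wild-type libraries, 0 of 2205 bins (0.00%) passed an adjusted p of 0.05; 95 bins (4.31%) had an unadjusted p under 0.05, and DESeq2 called 0, with 29 under 0.05 unadjusted. The log2 difference between genotype means lay between -0.23 and 0.23 for the central 95 percent of bins. In simulated counts for this comparison over 2205 bins, 97 of 100 bins changed 1.5-fold were recovered, and 47 of 100 with a smaller change. Both sets were changed together, and the adjustment is stricter when fewer bins change. The simulation therefore does not show whether a change confined to a few bins would have been called. The groups did not overlap in 197 bins (8.93%). Random labelling of 3 against 3 libraries separates the groups with a probability of 0.1.

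The smallest p belonged to chr12:61000001-62000000, with Lrfn5, a synaptic adhesion molecule, at ratios of 1.51, 1.61 and 1.49 in the wild-type and 2.37, 2.15 and 1.80 in the homozygous libraries. In homozygous replicate 1 the background of this bin was 166, against 217 to 266 in the other libraries. The chromosome 4 core's ratio was highest in that library too, at 1.09 against 0.644 to 0.762. For the chromosome 2 core the groups do not overlap in this bin. The log2 difference of 0.45 ± 0.11 (SE) had an edgeR adjusted p of 0.0587, and without homozygous replicate 3 the bin passed. Next in that direction were chr7:107000001-108000000, with Syt9, and chr3:49000001-50000000, with Pcdh18 (edgeR adjusted p = 0.428 and 0.697). In the other direction, chr6:55000001-56000000, with Adcyap1r1, had 1.247, 1.240 and 1.235 in the wild-type and 1.03, 0.931 and 0.843 in the homozygous libraries (edgeR adjusted p = 0.156), followed by chr10:27000001-28000000 with Lama2 and chr11:69000001-70000000 with Chd3 (0.697 and 0.963).

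**Figure D5:**
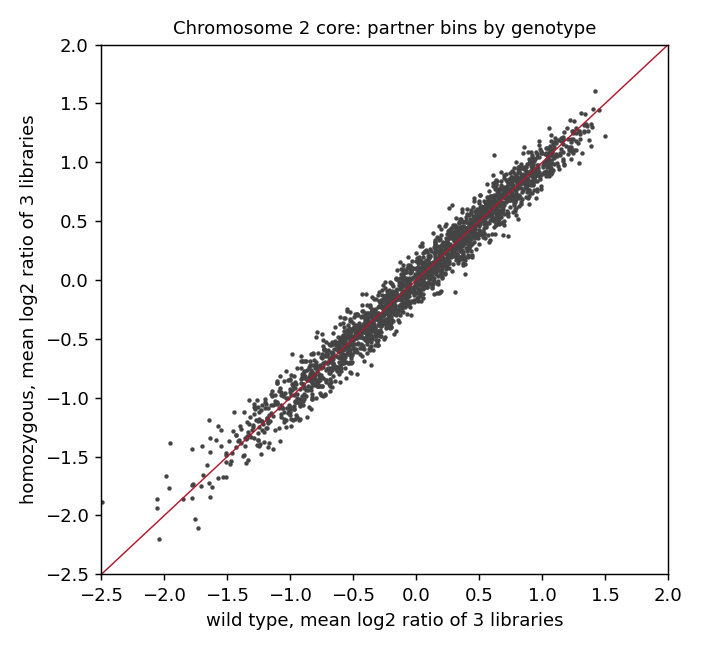
Mean log2 ratio to background of the chromosome 2 core over the 3 homozygous libraries (y axis) against that over the 3 wild-type libraries (x axis), 1 point for each kept 1 Mb bin, with the line of equality; 2 bins lie outside the axes. Points follow the line, and 95 percent of differences lie between -0.23 and 0.23.

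Summary values did not separate the genotypes either. Of the core's contacts, 15.1%, 14.9% and 15.5% were interchromosomal in the wild-type and 15.7%, 14.998% and 15.1% in the homozygous libraries, so the groups overlapped (15.2% ± 0.292 and 15.3% ± 0.364, SD, n = 3; exact permutation p = 0.7, where 3 against 3 cannot go below 0.1). The gene-density difference was -1.20 ± 0.049 in wild type and -1.22 ± 0.048 in homozygous libraries (exact permutation p = 0.6), and the difference by place 0.22 ± 0.012 and 0.24 ± 0.029 (p = 0.3). Of the 18 chromosomes, chromosome 7 alone had groups that did not overlap (5.56% of chromosomes), and the smallest adjusted p of the exact permutation test was 0.771. Differences between genotypes ranged from -0.02 to 0.06 on the log2 scale over the 18 chromosomes.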

How the data were processed

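Capture Hi-C libraries of mouse testis, 3 homozygous and 3 wild-type, were used. The authors deposited contact matrices as raw counts of read pairs per pair of 10 kb bins; the build is mm10 per the submitters' processing notes, and the aligner and filters are not given in the sources used here. From them, core and background contacts were summed in 1 Mb bins, and bins with under 25% of the median background were dropped. Bins were tested with edgeR 4.0.16 (R 4.3.3): quasi-likelihood, TMM, library as a block, Benjamini-Hochberg; for genotype, log background as an offset. DESeq2 1.42.0 was the alternative. The script was tested on simulated data. Contrasts of summed ratios used exact sign-flip permutations over 6 libraries, genotype values exact permutations of 3 against 3. Genes are from RefSeq GRCm38.p6. Named bins are the 10 most raised and 10 most lowered against background, 5 and 5 against the chromosome 4 core, and 3 and 3 for genotype by p. Members and lists were chosen with earlier results of these data known. GC, mappability and restriction sites of bins were not used here. Counting error is the only error that depth limits describe.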

Additional observations from a re-analysis of the deposited data

Results flagged for a closer look

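Core contacts with the captured part of chromosome 4 and with the X chromosome fall outside the comparisons above and exceeded the 3 contacts per library that a count of 0 allows. The core met the captured part of chromosome 4 at least 1947 times in each library and at most 2525 times, or 258 to 334 contacts per Mb against 183 to 228 per Mb over the other autosomes; both ends of these pairs are capture targets. With the X chromosome it had 5797 to 6855 contacts per library. The ratio to background on X was 0.898 ± 0.0188 (SD, n = 6) for the chromosome 2 core and 0.976 ± 0.053 for the chromosome 4 core, and their libraries overlapped.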

How the results depend on the processing

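Against background and against the chromosome 4 core, DESeq2, total-count scaling, no filter, each 10 kb pair counted once, no library block, an autosome-only background (against background only) and, chosen after seeing the data, leaving out high-background bins kept both counts of calls within 1.5 times and kept 95.3% to 99.9% of the main calls, all in the same direction. Bin size sets the number of tests: 2 Mb bins gave 508 higher and 522 lower against background and 481 and 492 against the other core, 500 kb bins 1851 and 1850, and 1761 and 1759. With 1 library left out these counts were 941 to 965 and 967 to 988, and 910 to 918 and 912 to 926.

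With 5 libraries the exact permutation test cannot go below 0.0625, so the contrasts miss the threshold by construction. Leaving out 1 library gave -1.23 to -1.20 for gene density, -1.81 to -1.75 against the chromosome 4 core and -1.24 to -1.20 against the rest of chromosome 2. For place it gave 0.22 to 0.23, -0.049 to -0.034 and 0.17 to 0.19, and for the window at the core's distance -0.12 to -0.11, -0.22 to -0.21 and -0.15 to -0.14. For the parts of the core, interchromosomal percentages differed by -0.70 to -0.64 (Meis2 minus left), -0.59 to -0.56 (right minus left) and 0.075 to 0.12 (right minus Meis2), and the gene-density values by 0.0099 to 0.029 (Meis2 minus left), 0.052 to 0.059 (right minus left) and 0.030 to 0.042 (right minus Meis2). In 2 Mb bins the place contrast against the chromosome 4 core was -0.027. Counting each 10 kb pair once reversed 3 values: Meis2 minus left to 0.161, right minus Meis2 to -2.79, and the genotype difference in the interchromosomal share from 0.089 to -0.52; the cause was not tested.

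By genotype, the interchromosomal share differed by -0.12 to 0.24 with 1 library left out, negative without wild-type replicate 2 (-0.049) or homozygous replicate 1 (-0.12). Called bins numbered 2 without homozygous replicate 2, 1 without homozygous replicate 3 and 1 with no offset, and 0 under the other settings. Of the 18 chromosomes, those without overlap numbered 1 to 5 with 1 library left out and 0 with pairs counted once. With 1 library left out, random labelling separates the groups more often than with 3 against 3. Bin by bin, the libraries did not pair by replicate number. Deviations of same-numbered libraries correlated at 0.038, 0.086 and -0.031, and not every library correlated best with its own number. Library totals did set number 2 apart in both genotypes. There the core gave 36.2% (wild-type) and 35.4% (homozygous) of the interchromosomal contacts, against 39.4% to 40.0% in the other libraries. Whether same-numbered libraries shared a batch was not tested. With the replicate block, 0 bins were called (102 at an unadjusted p under 0.05). The interchromosomal share differed by 0.089 (exact paired permutation p = 0.75). In the 3 pairs, 7 of the 18 chromosomes differed in 1 direction, which random signs give a chromosome with a probability of 0.25. Depth limits single bins, with a median of 203 core contacts per library: in the simulated genotype comparison over 2205 bins, 97 of 100 bins changed 1.5-fold were recovered and 47 of 100 bins with a smaller change.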
